A study of Mus musculus with 2 samples.

Results

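The replication-dependent histone genes of the mouse were taken as every gene in the files whose symbol starts with Hist1h, Hist2h, Hist3h or Hist4h, which gave 67 of 31053 genes. By histone type these were 6 linker H1 genes, 18 H2A, 18 H2B, 12 H3 and 13 H4 genes. In the GENCODE M21 annotation on mm10, 54 lay on chromosome 13, 10 on chromosome 3, 2 on chromosome 11 and 1 on chromosome 6. Their unique molecular identifiers (UMIs, each a tag of a single captured RNA molecule) were added up in the cell classes that the study's authors had assigned. Levels are given as counts in 1000000 UMIs (CPM) of the same class and library.

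Core histones H2A, H2B, H3 and H4 form the nucleosome around which DNA is wound, and H1 binds the linker DNA between nucleosomes. Most of their genes sit in clusters, have no introns and are transcribed mainly while DNA is copied in S phase, under the coactivator NPAT. The mRNA is cut just after a conserved stem-loop in its 3′ end, which is bound by the stem-loop binding protein SLBP, and in general carries no poly(A) tail. Some of these genes also have poly(A) sites further downstream, and polyadenylated histone mRNA is known from differentiated cells. Since poly(A) priming was used to capture RNA, the values below are those of captured histone RNA and not of all histone mRNA.

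The cells came from the ileal crypts of mice of the genotype Atoh1CreER-T2;R26RTom, which the labels call WT. In these mice a recombinase that tamoxifen activates is driven by Atoh1, the transcription factor of secretory commitment, so that cells with Atoh1 activity and their progeny turn red (Tom+). All mice received 2 doses of tamoxifen at 1 mg/mL with 24 h between them, and live Tom+ cells were sorted 12 h after the second dose. There was 1 group of 2 libraries, replicate 1 and replicate 2, made with 10x Genomics 3′ chemistry. Nothing in the labels ties a library to its own mouse, so p-values measure only the spread between these samples, which may be technical.

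The authors listed 5305 cells with 32656481 UMIs in replicate 1 and 6257 cells with 27014983 UMIs in replicate 2, in 12 classes. These are GOBLET, GOBLET-PRE, GP, PANETH, PANETH-PRE, EEC-PRE, EC, NON-EC, TUFT, SEC-PRO, ENTERO-PRO and ISC. Summed markers of stem cells were highest in ISC, those of goblet cells in GOBLET, of Paneth cells in PANETH, of tuft cells in TUFT and of enteroendocrine cells in EC and NON-EC. Those of secretory progenitors (Atoh1, Dll1, Dll4 and Spdef) were highest in GP (556 and 508 CPM), not in SEC-PRO (443 and 419). GOBLET-PRE, at 424 and 409, was close to SEC-PRO. Enterocyte markers were highest in ENTERO-PRO (14683 and 6260 CPM), but that class also held 51787 and 54416 CPM of goblet markers, beside 59457 and 60194 in GP. Ages of the mice are not given, and the sort keeps only cells with the Atoh1-driven mark. Class sums ranged from 129631 to 13770059 UMIs, GOBLET and EC being the shallowest in cells (42 listed cells each in replicate 1). Of the listed cells' barcodes, 12 occurred in both libraries. Because the classes were drawn from the expression of the same cells, the p-values between classes describe these libraries and are not independent evidence.

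The stem-loop that ends a replication-dependent histone mRNA was found in the annotated transcripts of 46 of the 67 members, in 8 versions. They are shown because they are the element that sets these genes apart from other mRNAs. The search required GG, then C or T, then T in the first arm, and A, then A or G, then CC in the second. Most of the pairing was thus built into the search, and a stem-loop outside this pattern would be missed. The 6 bases of each arm are in capitals and the loop in lower case (DNA letters, 5′ to 3′, GENCODE M21, mm10). In each version found, all 6 pairs of the stem matched.
Version in 26 H1, H2A, H2B and H3 members, Hist1h1e and Hist1h2ae among them: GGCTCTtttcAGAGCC
Version in 7 H4 members, Hist1h4d and Hist1h4h among them: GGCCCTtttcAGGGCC
Version in 6 members, Hist1h3c and Hist1h3e among them: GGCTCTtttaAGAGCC
Version in Hist2h2ac: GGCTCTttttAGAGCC

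The version in 26 members was found in no H4 gene, and the version in 7 members in H4 genes only. The other 4 versions were found in 2, 2, 1 and 1 members. Where found, the stem-loop began 21 to 58 bases after the stop codon (median 31). Of the members without it, 15 have an annotated 3′ UTR of at most 2 bases, which is too short to hold it. The other 6 have a longer 3′ UTR with no match. Of these, Hist1h2br, Hist1h2bq and Hist2h2be have the poly(A) signal AATAAA or ATTAAA in the last 50 bases of an annotated transcript, and Hist1h1a and Hist2h3b have 3′ UTRs of 48 and 37 bases. Hist1h2bc (chr13:23684199-23692908, plus strand) has a single annotated transcript of 1156 bases with a 3′ UTR of 742 bases. That 3′ UTR has no stem-loop match. It holds AATAAA, but neither signal lies in the last 50 bases.

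RefSeq promoter windows on GRCm38.p6 (250 bases before the start and 50 after it) were matched for 61 members, Hist1h2be with 2 windows. The CCAAT box was in 52 of them (85.2%) against 37.8% of the windows of 26964 other genes, and TATAAA was in 35 (57.4%) against 14.1%. All motifs were searched on both strands. CCAAT was in every matched window of the 6 H1, 17 H2A, 16 H2B and 10 H3 members, but in 3 of 12 H4 windows. The octamer core TTTGCAT was in 14 windows (23%, other genes 4.55%), of which 7 were H2A, 6 H2B and 1 H4. TTTCGCG was in 13 windows (21.3%, other genes 0.797%), 8 of H2A and 5 of H2B members. Windows of 9 pairs of an H2A and an H2B member overlap, so a site in the overlap can count for both. The counts of windows are therefore not counts of separate sites. A match describes the letters of the window and is not evidence of binding.

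The windows of 3 members are printed for their place in the results: Hist1h1e had the most UMIs, Hist1h2ae was the leading H2A gene, and Hist3h2ba was the member that rose in EEC-PRE. Capitals mark these motifs on either strand (reverse strand matches as their complement).
Hist1h1e, chr13:23622509-23622808, minus strand: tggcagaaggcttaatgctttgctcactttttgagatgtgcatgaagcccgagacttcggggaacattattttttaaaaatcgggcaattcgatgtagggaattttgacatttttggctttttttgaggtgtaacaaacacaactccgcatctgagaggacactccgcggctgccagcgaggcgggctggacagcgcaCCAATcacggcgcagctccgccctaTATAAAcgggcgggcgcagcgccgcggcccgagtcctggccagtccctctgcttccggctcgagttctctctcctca
Hist1h2ae, chr13:23571171-23571470, minus strand: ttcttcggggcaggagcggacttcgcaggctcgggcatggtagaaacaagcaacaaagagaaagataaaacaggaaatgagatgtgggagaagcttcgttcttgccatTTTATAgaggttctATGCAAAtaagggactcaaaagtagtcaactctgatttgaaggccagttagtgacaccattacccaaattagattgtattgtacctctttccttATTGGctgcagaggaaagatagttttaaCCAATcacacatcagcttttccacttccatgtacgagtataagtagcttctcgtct
Hist3h2ba, chr11:58948661-58948960, plus strand: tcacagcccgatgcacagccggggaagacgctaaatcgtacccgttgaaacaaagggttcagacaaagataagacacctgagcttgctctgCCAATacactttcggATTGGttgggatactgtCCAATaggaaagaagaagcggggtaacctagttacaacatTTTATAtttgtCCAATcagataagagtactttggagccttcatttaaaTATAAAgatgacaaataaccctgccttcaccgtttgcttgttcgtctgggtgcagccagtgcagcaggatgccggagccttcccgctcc

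In these windows Hist1h2ae has CCAAT boxes on both strands and an octamer core, while Hist1h1e has a single CCAAT box ahead of TATAAA. The Hist1h2ae window overlaps that of Hist1h2bg on the other strand by 279 bases. In all, 9 pairs of an H2A and an H2B member lay head to head with windows that overlapped by at least 100 bases. Captured RNA differed within some of these pairs: Hist1h2ae had 7007 UMIs and its partner Hist1h2bg 152 in all listed cells, Hist1h2an had 589 and Hist1h2bp 41, whereas Hist1h2bn had 601 and Hist1h2ak 521. In 4 of the 7 pairs with UMIs on both sides the members differed by more than 5-fold (median 5.73-fold). These ratios compare 3′ tags and carry no test.

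All members together had 74767 UMIs in the listed cells, 36394 in replicate 1 and 38373 in replicate 2. Few members carried most of them: 5 members held 47.4% and 12 held 75.1%, while 16 had at least 1000 UMIs, 8 had fewer than 50 and 4 had none. The linker histone genes Hist1h1e (9827 UMIs) and Hist1h1b (7035) led, followed by the H2A genes Hist1h2ae (7007) and Hist1h2ap (6169), the H2B gene Hist1h2bc (5386) and the H4 gene Hist1h4d (5020). Hist1h3c (3719), Hist2h2ac (3045), Hist1h1c (2924), Hist1h4h (2503), Hist1h1d (1981) and Hist1h3e (1503) completed the first 12. The 4 members without a UMI in listed cells were Hist1h2aa, Hist1h2ba, Hist1h2bq and Hist2h2aa2, where 0 counts allow up to 3 UMIs in all. Hist1h2aa and Hist1h2ba are known as testis histones, as is Hist1h1t, which had 2 UMIs.

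Many members are near copies of each other, and the aligner could share or drop their reads. Of the 67 members, 31 shared at least 50% of their 60-base words with another annotated gene and 15 at least 80%. Of the words of Hist1h2ap, 92.9% occur elsewhere, as do 96.8% of those of Hist1h2bq and all words of Hist2h2aa2 and Hist2h3c1. For Hist1h2bq and Hist2h2aa2, which had no UMI, the limit of 3 UMIs given above does not cover reads shared or dropped in this way. The values of single members are uncertain to that degree, and the 15 members held 13.0% of histone UMIs. How counting treated strand is likewise not given in the sources, so overlapping and antisense genes cannot be told apart with certainty.

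Histone RNA was highest in SEC-PRO and ISC. SEC-PRO had 4129 and 3279 histone CPM (replicates 1 and 2), and ISC had 2813 and 2832. Every other class had at most 1173 in either library, so that neither ISC nor SEC-PRO overlapped with any of them. The enteroendocrine EC (1173 and 1004) and NON-EC (826 and 1108) classes, TUFT (892 and 1069) and the precursors EEC-PRE (740 and 861) came next, and EC and NON-EC, EC and TUFT, and NON-EC and EEC-PRE overlapped between libraries while EC lay above EEC-PRE in both. ENTERO-PRO (671 and 576) and GP (620 and 616) followed, then GOBLET (506 and 503), GOBLET-PRE (434 and 431) and PANETH-PRE (387 and 373). PANETH was lowest at 136 and 175, a value that depends on scaling. Paneth marker genes made up 475424 and 516604 CPM in PANETH, and with TMM scaling over abundant genes PANETH stood at 638 ± 63.7 and PANETH-PRE at 443 ± 20.3 (SD, n = 2 libraries each), the opposite order.

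**Figure D1:**
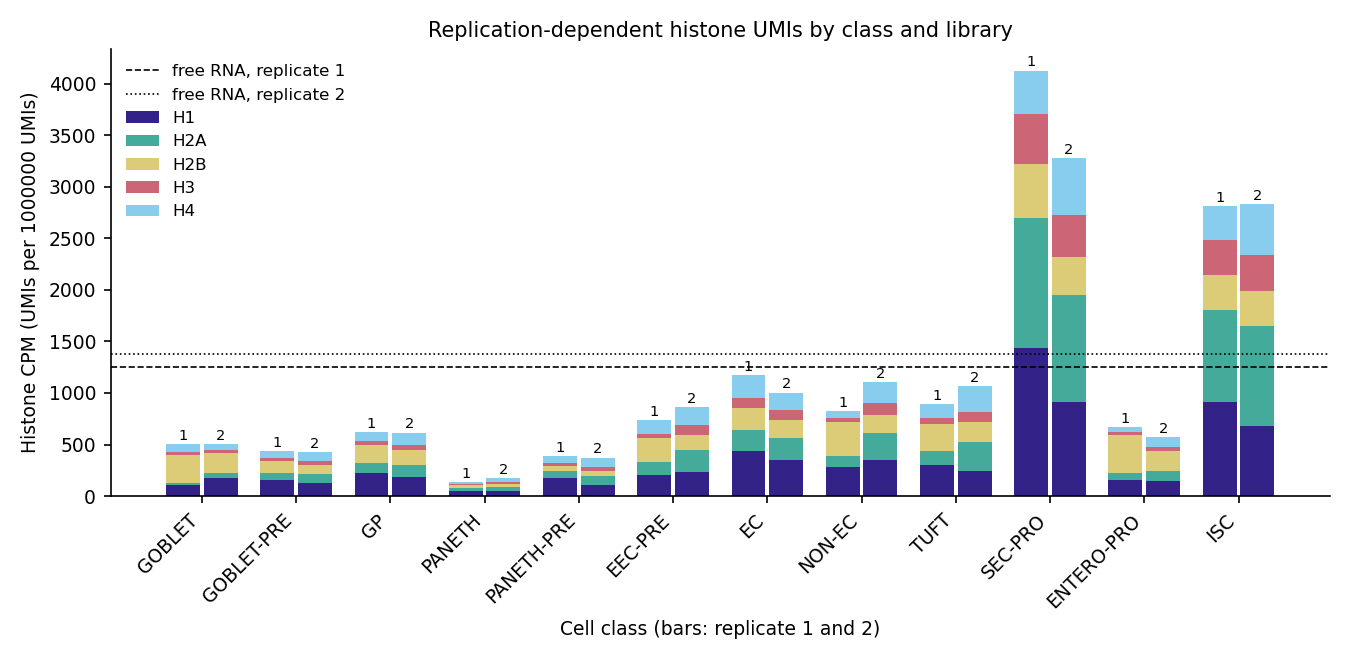
Histone CPM (vertical axis) in each cell class, with a bar per library marked 1 or 2 and split by histone type. Dashed and dotted lines give the level in free RNA of replicates 1 and 2 (1248 and 1381). SEC-PRO and ISC lie above both lines in both libraries, and all other classes lie below both lines.

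Barcodes with at most 50 UMIs, taken as free RNA, held 1248 and 1381 histone CPM, which is more than every class other than SEC-PRO and ISC. The free RNA in the listed cells was bounded with 2 genes chosen after their values were seen. By Fabp1, an enterocyte fatty acid binding protein, free RNA could bring at most 3.01% of the histone UMIs of GP, 2.12% of GOBLET-PRE and 2.00% of ISC in the library with the higher limit. By Defa24, a Paneth cell defensin, the limits were looser: 3.85% in SEC-PRO and 3.70% in ISC, but 27.8% in GP, 46.6% in GOBLET-PRE and 57.2% in GOBLET. The Fabp1 limit reached 19.7% in GOBLET. Fabp1 is expressed in ENTERO-PRO and TUFT and Defa24 in the Paneth classes, where these limits cannot be used. No free RNA was subtracted.

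Thinning each cell to 2000 UMIs left the histone CPM of SEC-PRO (3903 and 3185) and ISC (2608 and 2638) above the rest. The share of cells with a histone UMI did not separate them from every class. In thinned cells, 86.6% of SEC-PRO cells in replicate 1 and 81.2% in replicate 2 had a histone UMI, as did 80.6% and 80% of ISC cells. In EC the shares were 67.6% and 83.0%, in replicate 2 above those of SEC-PRO and ISC, and in TUFT 75.4% and 79.3%. PANETH was lowest, where 24.9% and 24.8% of thinned cells had one (exact 95% intervals 19.3 to 31.2% and 20.6 to 29.4%). Without thinning the shares were 95.3% and 88.4% in SEC-PRO, 92.0% and 88.2% in ISC, and 83.5% and 74.5% in PANETH, whose cells were far deeper (median 23375 and 12874 UMIs against 5413 and 3488.5 in SEC-PRO).

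Cells of 1 class were unequal. In thinned SEC-PRO cells the median was 3 histone UMIs in replicate 1 and 2 in replicate 2, while the 90th percentile was 22 and 18 and the highest 10% of cells held 38.4% and 39.0% of the class's histone UMIs. ISC had a median of 2 and 2, with 90th percentiles of 16.6 and 15.6. In GOBLET-PRE the 90th percentile was 2 UMIs in both libraries. The share held by the highest 10% of cells did not set SEC-PRO apart, being 37.1 and 39.9% in GOBLET-PRE. Over all classes it ran from 29.4% (NON-EC, replicate 1) to 68.3% (PANETH, replicate 2). By median and 90th percentile, SEC-PRO and ISC held cells of high and of low histone RNA side by side.

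The mix of histone types also differed between classes. H2A members gave 15.2 and 19.6% of histone UMIs in GOBLET-PRE and 15 and 20% in GP, against 30.4 and 31.5% for SEC-PRO, with 31.7 and 34.3% for ISC. H3 members gave 5.66 and 7.07% in GP, against 11.7 and 12.4% for SEC-PRO, with 11.9 and 12.6% for ISC. H2B shares ran the other way, with 29.3 and 23.1% in GP and 54.8 and 33.6% in ENTERO-PRO, against 12.8 and 11.3% for SEC-PRO, with 12.3 and 11.7% for ISC. These shares rest on few members, Hist1h2bc above all, which is described below.

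**Figure D2:**
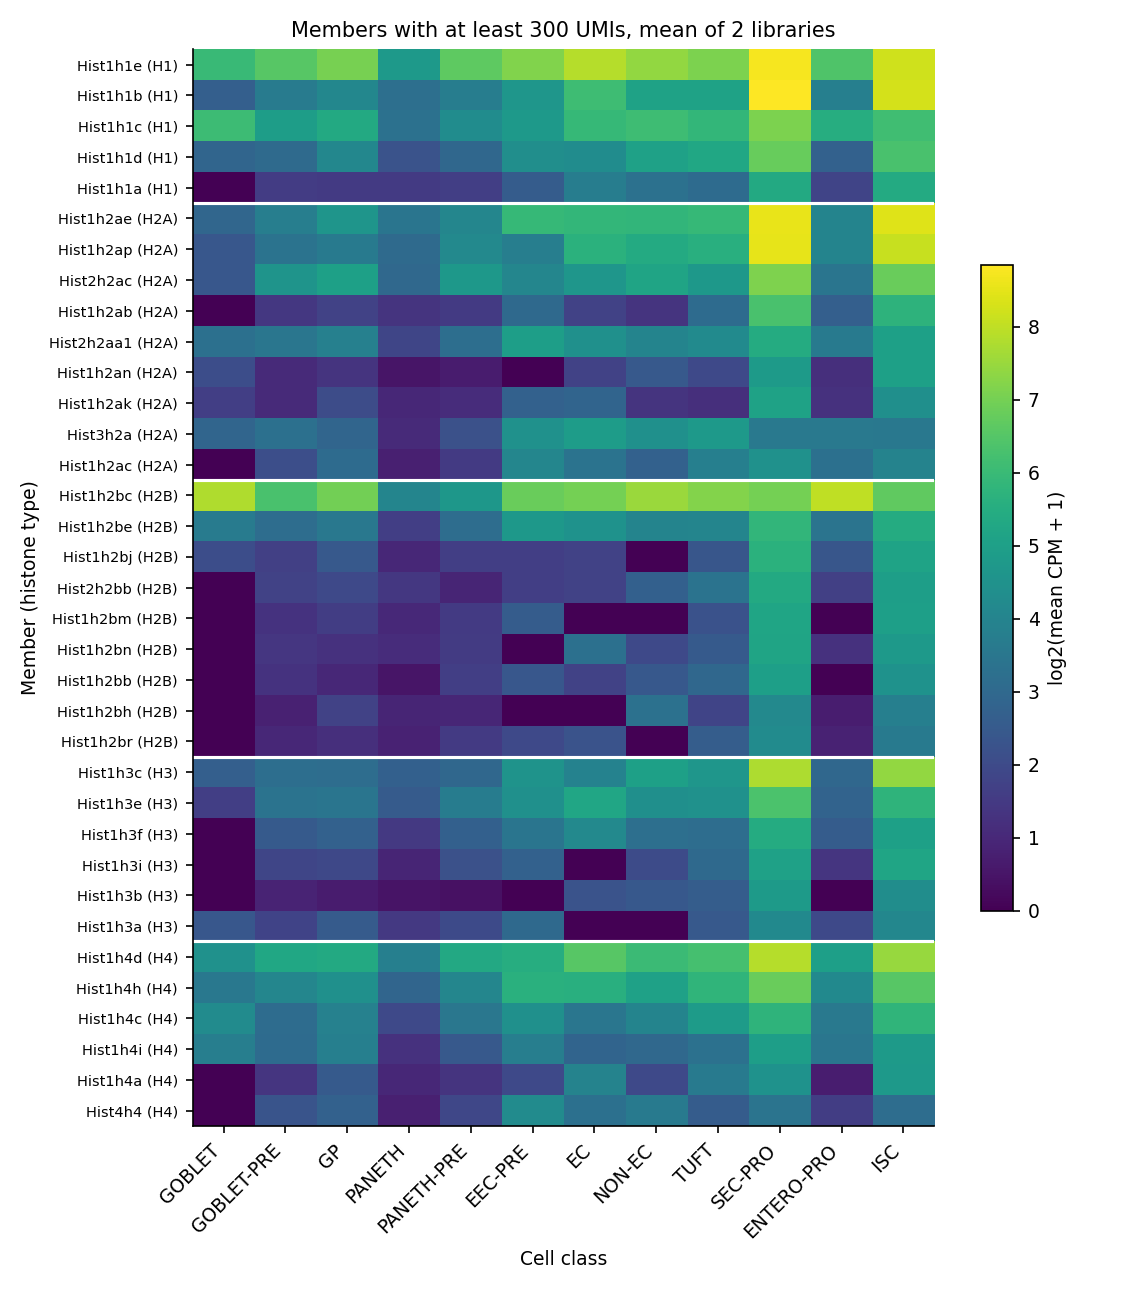
Mean level of each member with at least 300 UMIs in the 12 classes, as log2 of the mean CPM of 2 libraries plus 1, ordered by histone type and UMIs. Most rows are brightest in SEC-PRO and ISC, and the rows of Hist1h2bc, Hist3h2a and Hist4h4 are not.

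The first test set the histone genes of GP against SEC-PRO. Summed goblet markers were 59457 and 60194 in GP, 42110 and 39358 in SEC-PRO and 125736 and 113158 in GOBLET-PRE. Of the 67 members, 40 passed the filter on low counts (the other 27 held 1939 UMIs in all and are not tested here), and 36 of the 40 fell in GP by edgeR's quasi-likelihood test at an adjusted p of 0.05, none rising. Among all 10994 genes tested, 17.1% were called in either direction and 12.8% lower. The members' median log2 change was -2.97, against -0.07 over all genes tested. The filter kept a gene that was high in any class, so a member could pass it through SEC-PRO and ISC alone and then differ only by being lower elsewhere. Of the members called lower, 2 of 36 had at most 3 UMIs in GP, 9 of 38 in PANETH-PRE against SEC-PRO, 14 of 27 in EEC-PRE against SEC-PRO and 14 of 33 in ENTERO-PRO against ISC. The counts and medians of these comparisons describe the members that passed and are not support for a change of the family.

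Among the H1 genes, Hist1h1b had 16.2 and 15.7 CPM in GP against 575 and 346 in SEC-PRO. Its log2 change was -4.83 ± 0.34 (SE from the fit, n = 2 libraries). This SE and those below rest on the spread estimated over all sums of the fit. They do not measure the spread between the 2 libraries of a class. Hist1h1e had 148 and 111 in GP against 521 and 336 in SEC-PRO (log2 change -1.71 ± 0.11). These 2 linker histones had similar CPM in SEC-PRO, whereas in GP Hist1h1e was far above Hist1h1b and led all members, with Hist1h2bc next. Hist1h1c, with 43.5 and 36.7 in GP against 182 and 92.0 in SEC-PRO, fell by 1.75 ± 0.15, and Hist1h1d by 2.78 ± 0.17 on the log2 scale.

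Several H2A genes were among the members that fell most. Hist1h2ap had 8.45 and 14.9 CPM in GP against 393 and 333 in SEC-PRO (-4.99 ± 0.21), and Hist1h2ae 23.7 and 23.8 against 441 and 306 (-3.97 ± 0.31). Hist1h2ab, at 3.57 and 1.21 in GP against 86.8 and 71.3 in SEC-PRO, changed by -4.94 ± 0.26. Hist2h2ac, of the small cluster on chromosome 3, kept more: 29.6 and 34.3 in GP against 154 and 129 in SEC-PRO (-2.15 ± 0.14). The groups did not overlap for any of these.

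Of the H3 genes, Hist1h3c had 5.85 and 10.1 CPM in GP against 242 and 188 in SEC-PRO (-4.78 ± 0.41) and Hist1h3e 10.1 and 9.68 against 80.6 and 80.4 (-3.01 ± 0.19). Hist1h3b had 3 UMIs in GP, both libraries together, against 197 in SEC-PRO, a ratio of 0.0195 with a 95% counting interval of 0.00399 to 0.0579. Among H4 genes, Hist1h4d had 33.1 and 48.8 in GP against 185 and 283 in SEC-PRO (-2.50 ± 0.13), Hist1h4h 17.2 and 24.6 against 107 and 119 (-2.45 ± 0.18), and Hist1h4i changed by -1.20 ± 0.22. The other small declines were those of Hist1h2ac (-1.53 ± 0.28), Hist1h3d (-1.53 ± 0.42) and Hist2h2aa1 (-1.72 ± 0.20). Among H2B genes, Hist1h2bb changed by -4.79 ± 0.39 and Hist1h2be by -2.38 ± 0.21.

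The 4 tested members that were not called were Hist1h2bc, Hist3h2a, Hist4h4 and Hist3h2ba. Hist1h2bc had 148 and 103 CPM in GP against 184 and 73.0 in SEC-PRO, with a log2 change of 0.02 ± 0.16. The libraries went opposite ways, with a log2 change of 0.51 without replicate 1 and -0.32 without replicate 2. Hist3h2a, Hist4h4 and Hist3h2ba had log2 changes of -0.78 ± 0.31, -0.74 ± 0.36 and -0.89 ± 0.44. These 3 lie outside the large clusters, the H2A and H2B genes near each other on chromosome 11 and Hist4h4 alone on chromosome 6.

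**Figure D3:**
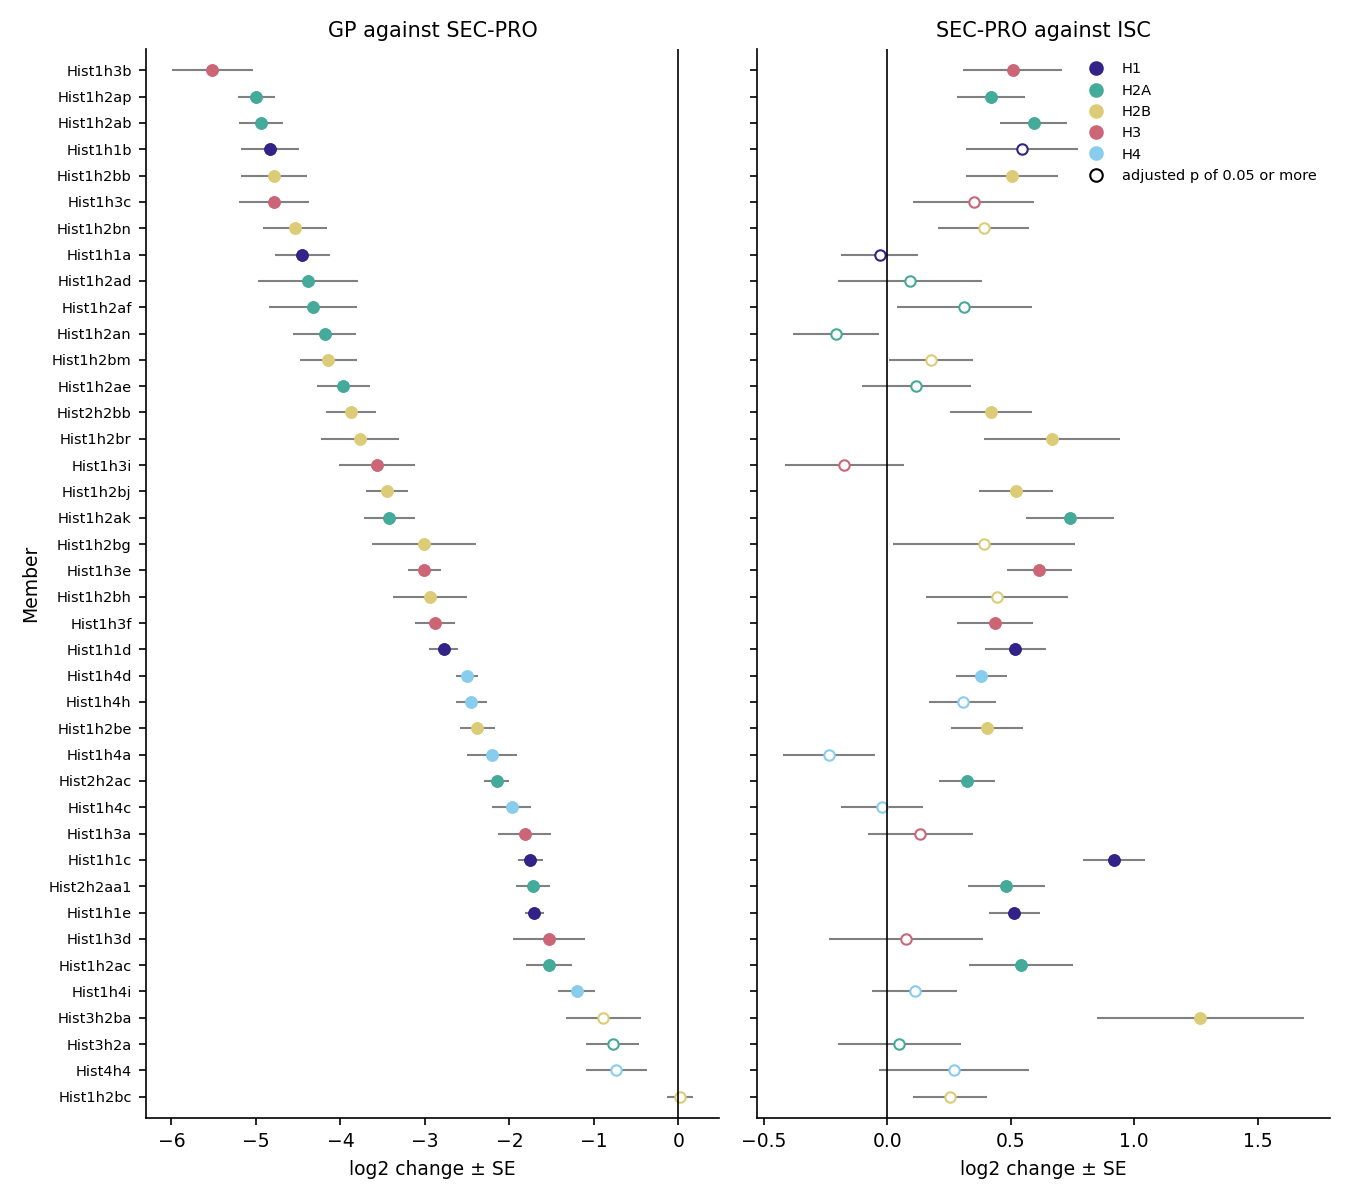
Log2 change with its SE (horizontal axis) of the 40 tested members in GP against SEC-PRO on the left and in SEC-PRO against ISC on the right, coloured by histone type, open where the adjusted p was 0.05 or more. On the left 36 points are filled and below 0 and Hist1h2bc lies at 0.02. On the right the changes are small and 19 are filled.

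Genes that work on histones also changed. Among factors of histone mRNA 3′ end processing and histone gene transcription, 13 of 26 tested fell in GP against SEC-PRO and none rose (median log2 change -0.40), with Slbp at -1.31 ± 0.14, Npat at -0.72 ± 0.19, Casp8ap2 (FLASH, a factor of the processing complex) at -1.03 ± 0.14 and E2f1 at -3.26 ± 0.41. Of 25 histone chaperones, 18 fell, led by Hjurp (-2.02 ± 0.13), Nasp (-1.87 ± 0.13) and Chaf1a (-3.36 ± 0.27), which load or carry histones. Among replacement variants, whose mRNAs are in general polyadenylated and made outside S phase too, 9 of 11 fell, H2afz by 1.21 ± 0.10 and H2afx by 1.44 ± 0.14. Cenpa is on this list and also on the G2/M list. All 40 S phase genes and all 34 tested G2/M genes fell, Pcna by 1.98 ± 0.16 and Mki67 by 3.64 ± 0.16 on the log2 scale. Since the lists and the members share these 4 sums, they are given side by side only.

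PANETH-PRE against SEC-PRO gave a similar count: 38 of 40 tested members fell (27.1% of all genes were called in either direction, 15.2% lower), with a median log2 change of -3.14. Hist1h2bc was among them here, with 27.0 and 22.0 CPM in PANETH-PRE against 184 and 73.0 in SEC-PRO (-1.79 ± 0.23). That call was lost without the library term (adjusted p 0.0731, edgeR), and the log2 change was -1.17 without replicate 1. The least changed called members were Hist1h1e (-1.54 ± 0.12), Hist1h2bc, Hist1h4c (-1.79 ± 0.29), Hist2h2aa1 (-1.83 ± 0.27) and Hist2h2ac (-1.93 ± 0.17). Hist1h2ab, with 0.586 and 3.14 in PANETH-PRE against 86.8 and 71.3 in SEC-PRO, changed by -4.85 ± 0.35. Hist1h2af had no UMI in PANETH-PRE and 113 in SEC-PRO, at least 17.4-fold lower against a floor of 3 counts over both libraries. Hist3h2a and Hist4h4 were the 2 tested members not called. Slbp changed by -1.01 ± 0.16 in the same comparison and Npat by -0.04 ± 0.22, which was not called.

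EEC-PRE, with 2694 and 3125 CPM of enteroendocrine markers, against SEC-PRO, with 242 and 250, gave 27 members that fell and 1 that rose among 40 (23.3% of all genes were called, 10.6% lower and 12.7% higher). EEC-PRE held only 413094 UMIs, and 6 tested members had no UMI there, so the median log2 change was -2.69 as fitted and -2.07 with those members at their bounds. Hist1h2ap had 8.46 and 17.0 CPM in EEC-PRE against 393 and 333 in SEC-PRO (-4.88 ± 0.47), and Hist1h1b 8.46 and 39.6 against 575 and 346 (-4.37 ± 0.67). Hist1h1e (-1.59 ± 0.19), Hist1h4h (-1.26 ± 0.35) and Hist1h2be (-1.20 ± 0.44) fell least. Hist1h2bn had no UMI in EEC-PRE against 251 in SEC-PRO, at least 4.85-fold lower, and the bounds were 3.8-fold for Hist1h3b, 3.79-fold for Hist1h2an, 2.32-fold for Hist1h2bh and 2.18-fold for Hist1h2af.

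The member that rose was Hist3h2ba, an H2B gene of the Hist3 cluster, with 42.3 and 17.0 CPM in EEC-PRE against 7.69 and 6.13 in SEC-PRO (2.15 ± 0.60, adjusted p 0.00467, edgeR). This rests on 10 and 3 UMIs in EEC-PRE against 31 and 19 in SEC-PRO, and the log2 change without replicate 1 was 1.33. It stayed at 23.1 and 9.34 in EC, 35 and 12.2 in NON-EC and 18.1 and 12.7 in TUFT, but had 3.17 and 2.26 in ISC, 2.69 and 0.994 in GOBLET-PRE and 0.209 and 0.388 in PANETH. Its neighbour Hist3h2a stood at 25.4 and 17.0 in EEC-PRE, 38.6 and 18.7 in EC, 29.6 and 12.2 in NON-EC and 26.3 and 25.4 in TUFT, against 12.6 and 9.36 for SEC-PRO, with 12.4 and 8.77 for ISC, but its change of 0.98 ± 0.59 in EEC-PRE against SEC-PRO was not called. Hist4h4 stood at 25.4 and 11.3 in EEC-PRE against 9.43 and 10.0 in SEC-PRO (1.02 ± 0.64, not called). Both Hist3 members were lower in replicate 2 than in replicate 1 in most of these classes, and EC and NON-EC also held 1065 and 729 (EC) and 229 and 76.1 (NON-EC) CPM of a mesenchyme list of 4 genes, 3 of them at 0. The part of that signal in the Hist3 levels was not tested.

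In ENTERO-PRO against ISC, 33 of 40 tested members fell and 1 rose (37.0% of all genes were called, 18.4% lower and 18.6% higher), with a median log2 change of -3.20 as fitted and -2.98 with 4 members without UMIs at their bounds. Hist1h2ae had 11.1 and 19.0 CPM in ENTERO-PRO against 357 and 330 in ISC (-4.31 ± 0.48), and Hist1h3c 4.74 and 8.87 against 165 and 175 (-4.43 ± 0.66). Hist1h4d had 20.5 and 40.5 against 142 and 217 (-2.39 ± 0.20). Hist1h2bm had no UMI against 343 in ISC, at least 15.2-fold lower, and Hist1h2bb and Hist1h3b were at least 10.2-fold and 9.72-fold lower. Hist1h2bc rose, with 348 and 168 in ENTERO-PRO against 120 and 82.8 in ISC (1.44 ± 0.17). That call was lost without the library term (adjusted p 0.0618, edgeR). Hist1h1c at 52.1 and 38.0 against 77.0 and 62.8 was not called (-0.50 ± 0.22). Of the called members, Hist1h4i (-1.21 ± 0.37), Hist2h2aa1 (-1.29 ± 0.34), Hist1h1e (-1.62 ± 0.15) and Hist1h2be (-1.96 ± 0.35) fell least. By Defa24, free RNA could bring at most 16.7 and 29.7% of the histone UMIs of ENTERO-PRO.

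Between SEC-PRO and ISC the difference was small and depended on the method. In SEC-PRO against ISC, 19 of 40 tested members rose and none fell, when 34.5% of all genes were called, 19.2% higher, and the members' median log2 change was 0.39. However, 9 members were called with TMM over all genes or with DESeq2's size factors, 3 without the library term and 2 by DESeq2's Wald test. The first 2 settings moved the median of all genes by -0.10 and -0.13 on the log2 scale, and among the members named here Hist1h2ae, not called, turned to -0.01 with DESeq2's size factors. Hist1h1c was the clearest, with 182 and 92.0 CPM in SEC-PRO against 77.0 and 62.8 in ISC (0.92 ± 0.13), followed among called members by Hist1h2ak (0.74 ± 0.18), Hist1h2br (0.67 ± 0.27) and Hist1h3e (0.62 ± 0.13), with Hist3h2ba at 1.27 ± 0.42, a call lost in cells thinned to 2000 UMIs (0.64, adjusted p 0.505, edgeR). Hist1h1b at 0.55 ± 0.23 and Hist1h2ae at 0.12 ± 0.22 were not called. The smallest called changes were those of Hist2h2ac (0.32 ± 0.11), Hist1h4d (0.38 ± 0.10) and Hist1h2be (0.40 ± 0.15). Of 49 members with at least 100 UMIs, 38 had their highest mean level in SEC-PRO, 5 in ISC, 2 in EC, 2 in EEC-PRE, 1 in ENTERO-PRO and 1 in TUFT. A member could reach 100 UMIs through SEC-PRO and ISC alone, and the same count was not made over all genes. These numbers describe the members that passed and are not support for a difference between SEC-PRO and ISC.

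In the same comparison the S phase list had 8 genes higher and 5 lower of 40 (median -0.07), whereas 30 of 34 G2/M genes were higher (median 0.55), Mki67 by 0.99 ± 0.14. Pcna (0.01 ± 0.12), Slbp (0.05 ± 0.11) and Npat (0.07 ± 0.16) did not pass the test. Of 25 chaperones 1 was higher and 4 lower, Chaf1b at -0.86 ± 0.19 and Nasp at -0.40 ± 0.11 among the lower. Of the replacement variants, the linker histone H1f0 rose by 0.90 ± 0.11 and H1fx changed by -1.04 ± 0.35.

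Later steps changed few members. GOBLET-PRE against GP gave 3 of 40 lower and none higher, near the share over all genes (9.39% called, 4.48% lower and 4.90% higher): Hist1h1d (8.50 and 6.36 CPM in GOBLET-PRE against 14.9 and 17.3 in GP, -0.84 ± 0.23), Hist1h4a (-1.38 ± 0.44) and Hist1h3d (-1.67 ± 0.57). None was called without the library term or by DESeq2, and the change of Hist1h4a reversed to 0.51 in cells thinned to 2000 UMIs. The median of the tested members was -0.29.

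PANETH against PANETH-PRE gave 2 of 40 higher (8.10% of all genes called, 5.31% higher and 2.79% lower), both on the TMM scale that raises PANETH. Hist1h2bc had 17.4 and 13.6 CPM in PANETH against 27.0 and 22.0 in PANETH-PRE, lower before scaling, and a log2 change of 1.19 ± 0.28 after it. Hist2h2bb had 17 UMIs in PANETH against 3 in PANETH-PRE, a ratio of CPM of 1.88 (95% counting interval 0.544 to 10.0). Neither was called in thinned cells or without the library term, and 1 was called by DESeq2.

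GOBLET against GOBLET-PRE also gave 2 of 40 higher (12.1% of all genes called, 8.21% higher and 3.90% lower), and 19 tested members had no UMI in the shallow GOBLET sums. Hist1h2bc had 253 and 185 CPM in GOBLET against 97.7 and 60.8 in GOBLET-PRE (2.21 ± 0.29), with no overlap between libraries. Hist1h1c had 45.4 and 85.9 in GOBLET against 32.6 and 26.4 in GOBLET-PRE (2.01 ± 0.38), and without the library term Hist1h1c was called and Hist1h2bc was not (adjusted p 0.0739, edgeR). With TMM over all genes the median of all genes moved by -0.36 on the log2 scale in this comparison, and both members were still called.

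Hist1h2bc departed from most members in several of these comparisons: it was not called in GP against SEC-PRO and rose in ENTERO-PRO against ISC, although it fell in PANETH-PRE against SEC-PRO. The calls in ENTERO-PRO and PANETH-PRE both rest on the library term. It was 50 and 36.8% of all histone UMIs in GOBLET, 51.8 and 29.2% in ENTERO-PRO, 32.9 and 8.52% in NON-EC, 23.8 and 16.8% in GP and 22.5 and 14.1% in GOBLET-PRE, against 4.46 and 2.23% for SEC-PRO, with 4.28 and 2.92% for ISC. It also differed between the libraries: its level was lower in replicate 2 in all 12 classes, at 0.688 times replicate 1 in ISC and 0.396 times in SEC-PRO. Hist1h1c was lower in replicate 2 in 11 of 12 classes. In the other direction, Hist1h4d was higher in replicate 2 in all 12 classes (1.53 times in ISC) and Hist2h2aa1 in 11 (2.47 times in ISC), among 38 members with at least 200 UMIs.

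**Figure D4:**
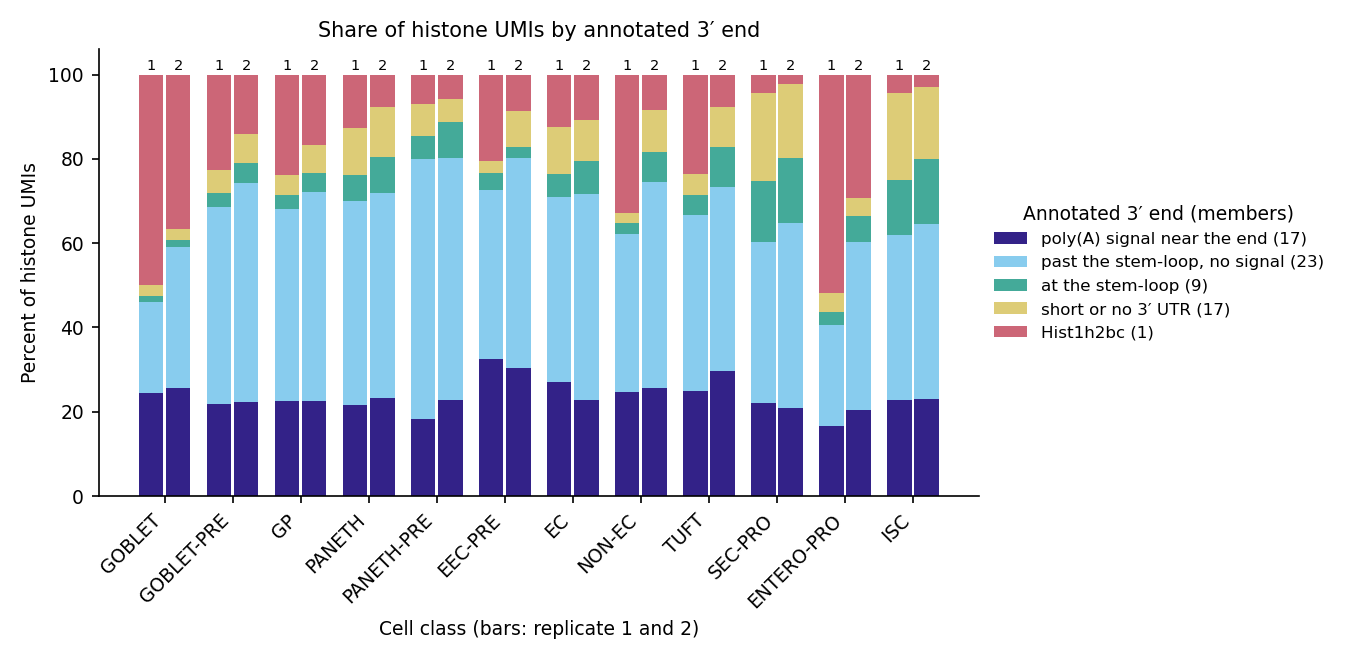
Percent of histone UMIs (vertical axis) by the annotated 3′ end of the member, with a bar per library in each cell class. The Hist1h2bc share is below 5% in SEC-PRO and ISC and reaches 51.8% in ENTERO-PRO, and members annotated to end at the stem-loop or with little or no 3′ UTR are largest in SEC-PRO and ISC.

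The annotated 3′ ends were compared because the libraries prime on A-rich RNA. The members fell into 17 with AATAAA or ATTAAA in the last 50 bases of an annotated transcript, 23 that run more than 30 bases past the stem-loop without it, 9 that end at the stem-loop, 17 with a short or no annotated 3′ UTR and no stem-loop, and Hist1h2bc. Members that end at the stem-loop gave 1.28 and 1.71% of histone UMIs in GOBLET, 3.23 and 4.84% in GOBLET-PRE and 3.46 and 4.52% in GP, against 14.4 and 15.4% for SEC-PRO, with 13.0 and 15.5% for ISC. Those with a short or no 3′ UTR gave 4.77 and 6.55% in GP, against 20.8 and 17.6% for SEC-PRO, with 20.9 and 17.0% for ISC. Members with a signal had similar shares in these classes, 22.5 and 22.7% in GP, against 22.0 and 20.8% for SEC-PRO, with 22.9 and 23.1% for ISC. The groups were formed after values had been seen, so the shares carry no test, and the files do not hold the position at which a UMI was captured.

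Cells of SEC-PRO and ISC were then split by cell cycle genes that include no histone gene. After thinning to 2000 UMIs, cells with at least 3 UMIs of 40 S phase genes and more of them than of 35 G2/M genes were called S-high, the reverse G2M-high, and cells with at most 1 UMI of each list low. The split used no member, and its own genes were left out of the test, which kept 6067 genes and 27 members. The filter could keep a member through S-high or G2M-high cells alone. Such a member could then differ only by being lower in the other states. The counts against low cells, and those of S-high against G2M-high cells, thus describe the members that passed. They are not support for a change of the family.

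Histone RNA was highest in G2M-high cells. They had 4945 and 4715 histone CPM in SEC-PRO cells and 4201 and 4150 in those of ISC, against 810 and 620 (SEC-PRO) and 638 and 584 (ISC) in low cells. Of 27 tested members 23 rose in G2M-high against low cells and none fell, whereas 4.66% of all genes were called, 2.51% higher and 2.16% lower. Without replicate 2 the count was 10, and in SEC-PRO alone 10. Hist1h3c changed by 5.36 ± 0.46, Hist1h2ap by 4.80 ± 0.33, Hist1h1b by 4.38 ± 0.30 and Hist1h4d by 4.07 ± 0.35, against 1.80 ± 0.19 for Hist1h1e and 1.34 ± 0.33 for Hist1h1c. Low cells of both classes held few UMIs of these members in replicates 1 and 2. Hist1h3c had 0 and 2, Hist1h2ap 3 and 2, Hist1h1b 5 and 2 and Hist1h4d 2 and 4. Hist1h1e had 22 and 21 there and Hist1h1c 8 and 9. The largest changes are thus uncertain in size.

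S-high cells stood between, with 2147 and 1757 histone CPM in SEC-PRO cells, with 1718 and 1814 in those of ISC. Against low cells 9 of 27 members rose and 1 fell (2.06% of all genes called, 1.57% higher and 0.494% lower), 4 being called without replicate 2 and 5 in SEC-PRO alone. Hist1h3c (3.89 ± 0.59), Hist1h2ap (3.52 ± 0.40), Hist1h1b (3.33 ± 0.35), Hist1h2ae (2.78 ± 0.33), Hist1h4d (2.68 ± 0.43) and Hist2h2ac (1.90 ± 0.45) were among those that rose. These changes rest on the same few UMIs in low cells, with 4 and 6 for Hist1h2ae and 3 and 4 for Hist2h2ac. Hist1h2bc was the member that fell (-1.25 ± 0.29), a call lost without the library term (adjusted p 0.525, edgeR). The low states held 25 to 89 cells. Against G2M-high cells 23 of 27 members fell in S-high cells and none rose (8.24% of all genes called, 3.53% lower and 4.71% higher). Changes ran between -1.89 ± 0.25 for Hist1h3f and -0.83 ± 0.23 for Hist1h3i, with Hist1h4h at -1.72 ± 0.16. In that comparison Slbp rose by 1.25 ± 0.15, Npat by 0.93 ± 0.24 and Casp8ap2 by 1.47 ± 0.16, and H2afx and H1f0, replacement variants, fell by 1.43 ± 0.13 and 1.24 ± 0.11.

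A split into 4 states, made after these values had been seen, showed where the high values lay. Cells with at least 3 UMIs of both lists had 6812 and 5504 histone CPM in SEC-PRO cells, with 4688 and 4357 in those of ISC, and those with at least 3 of the G2/M list and at most 1 of the S phase list had 2492 and 2474 (SEC-PRO) and 1936 and 2630 (ISC). With the reverse, the S phase list only, the level was 667 and 792 (SEC-PRO) and 530 and 576 (ISC), beside 810 and 620 (SEC-PRO) and 638 and 584 (ISC) in cells with neither list. The cells with both lists numbered 239 and 268 (SEC-PRO) and 218 and 638 (ISC), and 90.3 to 94.6% of them had a histone UMI. The level in S phase list only cells lay below that of cells with neither list in both libraries of ISC and in replicate 1 of SEC-PRO, and above it in replicate 2 of SEC-PRO.

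**Figure D5:**
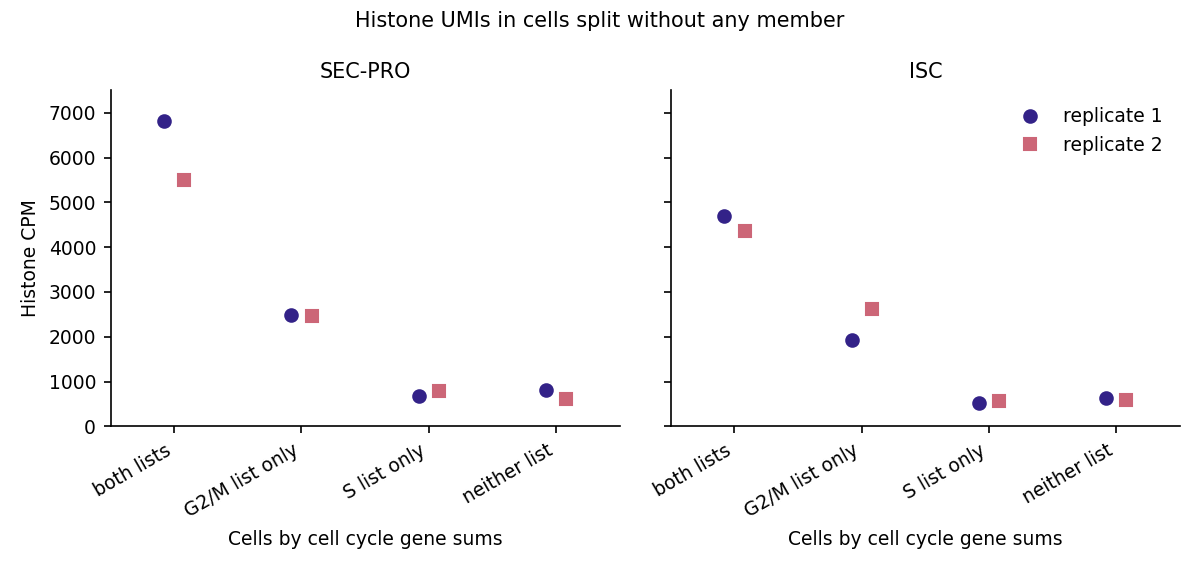
Histone CPM (vertical axis) in thinned SEC-PRO and ISC cells by whether they had at least 3 UMIs of both cell cycle lists, of the G2/M list only, of the S phase list only (at most 1 UMI of the other list), or at most 1 UMI of each. Each point is a library, and cells with both lists stand highest in each class and library.

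Single members differed between these states. Over both classes, Hist1h1b had 894 and 494 CPM in cells with both lists and 192 and 172 with the G2/M list only, against 43.1 and 8.77 with neither. Hist1h2ae had 723 and 543 in cells with both lists against 34.5 and 26.3 with neither. In cells with neither list these levels rest on 5 and 2 UMIs of Hist1h1b and 4 and 6 of Hist1h2ae. Hist1h1e was less uneven, at 712 and 423 with both lists and 190 and 92.1 with neither. Hist1h2bc was highest in replicate 1 with the G2/M list only (325) and in replicate 2 with neither (149), and had 103 and 62.9 with both lists.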

How the data were processed

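Unique molecular identifier (UMI) counts per gene and barcode were deposited by the authors as raw matrices, made with Cell Ranger 3.0.2 and STAR on mm10 per the submitters' processing notes. The authors' deposited cell table gave each cell's library, class, UMI and gene counts and its percent of mitochondrial UMIs; how its limits and classes were set was not given in the sources. No column of it was left without a sample (0 unused). The members, lists and tests were chosen with earlier results of these data known.

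Counts were summed per class and library (24 sums). edgeR 4.0.16 (R 4.3.3) fitted class and library with its quasi-likelihood test and Benjamini-Hochberg adjustment at 0.05, after filterByExpr (10994 genes) and TMM scaling over genes with average log2 CPM of at least 6; residual degrees of freedom were 11 and the median biological coefficient of variation 0.0641. The state fit used 12 sums, 6067 genes and 7 degrees of freedom. Each SE is the absolute log2 change divided by the square root of the F statistic of its test. Levels are CPM, UMIs in 1000000 UMIs of the class. Cells were thinned to 2000 UMIs (seed 11), which left out 375 cells of replicate 1 and 901 of replicate 2. No doublet caller was run. Exact intervals and the floor of 3 counts cover counting error only. Alternatives included DESeq2 1.42.0. The 12 members with most UMIs and, per comparison, up to 5 largest and 5 smallest called changes were named, with list genes of smallest p.

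The library term pairs classes taken from the same library. Over 66 pairs of classes and 3929 genes, deviations of same-library sums correlated with a median r of 0.265 (0.0402 to 0.767), genes not being independent.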

Additional observations from a re-analysis of the deposited data

Results flagged for a closer look

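Histone UMIs were also present in barcodes that the comparisons do not use. Barcodes with at most 50 UMIs held 1248 histone CPM in replicate 1 and 1381 in replicate 2. Barcodes absent from the authors' cell table with at least 3000 genes and under 7% mitochondrial UMIs held 2654 in replicate 1 and 2785 in replicate 2, and those with more than 600 and under 3000 genes and at least 7% mitochondrial UMIs held 2200 and 2369. The listed cells held 1114 and 1420 CPM. The unlisted barcodes with at least 3000 genes also had more UMIs of the G2/M list, 3921 and 3772 CPM against 1160 and 1609 in listed cells.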

How the results depend on the processing

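Without the replicate block (library term) the counts of called members were 3 in SEC-PRO against ISC, 0 in GOBLET-PRE against GP, 0 in PANETH against PANETH-PRE and 1 in GOBLET against GOBLET-PRE, and the block changed no other count by more than 1.5 times. For SEC-PRO against ISC, TMM over all genes and DESeq2's size factors each gave 9 and DESeq2's Wald test 2. The Wald test gave 0 in GOBLET-PRE against GP and 1 in PANETH against PANETH-PRE, where thinned cells gave 0. In SEC-PRO alone, 5 members were called in S-high and 10 in G2M-high against low cells. Leaving out a replicate gave 4 to 8 members in S-high against low, 10 to 22 in G2M-high against low, and 19 to 25 in S-high against G2M-high cells. Class comparisons without a replicate have no residual degrees of freedom and no test. Hist1h4a in GOBLET-PRE against GP reversed to 0.51 in thinned cells; the cause was not tested.

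TMM scaling moved the mean level to 859 in EC, 643 in EEC-PRE, 552 in ENTERO-PRO, 748 in GOBLET, 393 in GOBLET-PRE, 489 in GP, 2236 in ISC, 745 in NON-EC, 638 in PANETH, 443 in PANETH-PRE, 2912 in SEC-PRO and 743 in TUFT. Thinning gave 912 in EC, 726 in ENTERO-PRO, 515 in GOBLET, 428 in GOBLET-PRE, 612 in GP, 2623 in ISC and 211 in PANETH. Without the top 5% of cells the level was 814 in EC, 507 in GOBLET, 629 in GP and 408 in PANETH-PRE. The causes were not tested. Sums of 129631 UMIs in the smallest class limit what low members can show.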
